A study of Caenorhabditis elegans with 2 samples.

Results

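tRNA gene loci in *C. elegans* were examined for binding of eGFP-tagged PROS-1. The members are all 612 nuclear genes of biotype tRNA in the WBcel235 annotation, of 634 in all, as the 22 mitochondrial ones were left out. Each was extended by 200 bp on both sides, to a typical window of 472 bp, and scored by the strongest peak summit inside it. The data are ChIP-seq peak lists from whole late embryos, pooled male and female, of strain OP500, whose labelled genotype is unc-119(tm4063) III with the integrated transgene wgIs500. The tagged pros-1 and the unc-119 mutation are shared by every sample: there was 1 group of 2 biological replicates, with no untagged or pros-1 mutant samples among them, and the experiment listed as a possible control was not analysed here. A transgene can hold extra copies of pros-1 and of what lies within it.

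PROS-1 is the worm homolog of Prospero, a homeodomain transcription factor known for its roles in neural and glial differentiation. tRNA genes are transcribed by RNA polymerase III from a promoter that lies inside the gene. The factor TFIIIC binds its A box and B box, TFIIIB is placed just upstream of the start, and a run of T ends the transcript. tRNA genes are short and many occur in identical copies, so that short reads from the gene itself can fit several places while those from its flanks usually fit 1.

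Most of the genes had sequence features of tRNA genes. An A box match was present in 539 genes, and 605 had a TTTT run in the 30 bp after the gene. No background share is given for either. RefSeq, matched by WormBase gene ID, listed all 612 as tRNA genes and gave an amino acid for 607, which compares labels and not sequences. The genes had 200 distinct sequences, 57 of them in several copies and 1 in 29. Windows were mostly unique, with a median of 87.6% of their 32-base stretches found once in the genome and a lowest value of 5.44%. The X chromosome held 45.1% of the genes on 17.7% of the nuclear genome.

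The sequences that carry the main findings are given from the RefSeq genome (WBcel235, ce11), 5′ to 3′ along the tRNA gene's strand, with the tRNA gene in capitals. The first 4 are 161 bp windows centred on the pooled summit, so the middle base is the summit. They show the locus of the highest signal value, C04A11.t1 (X:13665484-13665644, plus strand), the gene inside an intron of pros-1, K12H4.t1 (III:8069373-8069533, plus strand), and a pair of identical tRNA-Pro genes in different surroundings, ZK899.t1 (X:9467655-9467815, minus strand) and H06A10.t1 (X:13511954-13512114, minus strand).
C04A11.t1: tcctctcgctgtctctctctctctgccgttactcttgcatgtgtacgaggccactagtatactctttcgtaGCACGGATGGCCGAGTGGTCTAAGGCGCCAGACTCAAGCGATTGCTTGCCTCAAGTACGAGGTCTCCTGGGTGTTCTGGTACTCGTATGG
K12H4.t1: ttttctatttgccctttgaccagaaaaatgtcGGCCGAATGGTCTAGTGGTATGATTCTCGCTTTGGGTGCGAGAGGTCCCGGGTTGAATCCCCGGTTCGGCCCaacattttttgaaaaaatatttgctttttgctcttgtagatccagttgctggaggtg
ZK899.t1: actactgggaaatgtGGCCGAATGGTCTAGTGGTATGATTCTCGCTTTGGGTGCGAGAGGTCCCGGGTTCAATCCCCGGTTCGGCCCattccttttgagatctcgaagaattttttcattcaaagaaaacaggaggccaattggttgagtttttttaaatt
H06A10.t1: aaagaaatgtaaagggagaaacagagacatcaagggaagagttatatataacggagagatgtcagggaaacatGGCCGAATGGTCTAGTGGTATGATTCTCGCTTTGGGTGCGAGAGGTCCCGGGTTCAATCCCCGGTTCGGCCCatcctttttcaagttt

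A locus on V is shown for a summit at the gene's 5′ end, F15B9.t1 (V:13003498-13003658, minus strand), again with the gene in capitals.
F15B9.t1: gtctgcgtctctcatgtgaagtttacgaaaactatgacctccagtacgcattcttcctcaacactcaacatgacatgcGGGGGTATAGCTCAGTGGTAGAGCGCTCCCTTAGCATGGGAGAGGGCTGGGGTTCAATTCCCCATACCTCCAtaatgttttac

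In the next pair only the tRNA gene is given, and the capitals mark its B box core, GTTCGANNC. They are R04D3.t2, a tRNA-Val gene (X:13307034-13307106, plus strand), and C43G2.t1, a tRNA-Leu gene (IV:6556818-6556901, plus strand).
R04D3.t2: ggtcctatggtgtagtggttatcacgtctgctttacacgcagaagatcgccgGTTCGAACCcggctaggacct
C43G2.t1: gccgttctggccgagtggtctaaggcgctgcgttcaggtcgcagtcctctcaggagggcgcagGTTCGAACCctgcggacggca

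PROS-1 peaks lay at a small share of the tRNA loci, which was well above the share of the genome. The authors' IDR list holds 737 pooled peaks and is labelled as thresholded on reproducibility, with a setting not given in the sources used here. At the tRNA loci it behaved as a cut on pooled signal, as the 737 strongest pooled candidates reached as many of them. Its lowest signal value was 26.4, and the strongest tRNA locus outside it had 26.3 (pooled rank 739). The list holds peaks that were weak in 1 replicate, such as that at Y22D7AL.t4, rank 17221 in replicate 1. A summit of the IDR list lay in 36 of 612 loci (5.88%, exact 95% binomial interval 4.15% to 8.05%). Of 212439 windows of 472 bp laid end to end over the nuclear genome, 0.345% held one. The 36 loci were reached by 33 distinct summits, which is 4.48% of the list, as 3 summits each fell in a pair of overlapping loci. The interval counts loci only: neighbouring loci share summits and are not replicates.

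Both replicates had this excess on their own. Among the 737 strongest candidates of replicate 1, a summit fell in 28 loci (4.58%), beside 0.344% of the genome windows. For replicate 2 it was 34 loci (5.56%), beside 0.346%. Only 17 loci were in the top of both replicates, which is 60.7% of those of replicate 1 and 50% of those of replicate 2. All 17 were in the IDR list, which also uses the replicates and is no separate evidence of this overlap.

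The full candidate lists hold 30000 regions each, background included. A pooled candidate summit lay in 264 loci (43.1%, exact 95% binomial interval 39.2% to 47.2%), beside 13.8% of the genome windows. In replicate 1 it was 195 loci (31.9%), beside 13.7% of windows, and in replicate 2 it was 256 (41.8%), beside 13.8%. At 271 loci no list had a candidate. The ratio of the shares was thus higher at the top of the lists: for the pooled list it was 17.05 among the 737 strongest, 16.1 among the 2000 strongest, where 92 loci were reached, 6.11 among the 10000 strongest and 3.14 over all. Replicate 1 had lower ratios than replicate 2 at each of the 5 depths.

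**Figure D1:**
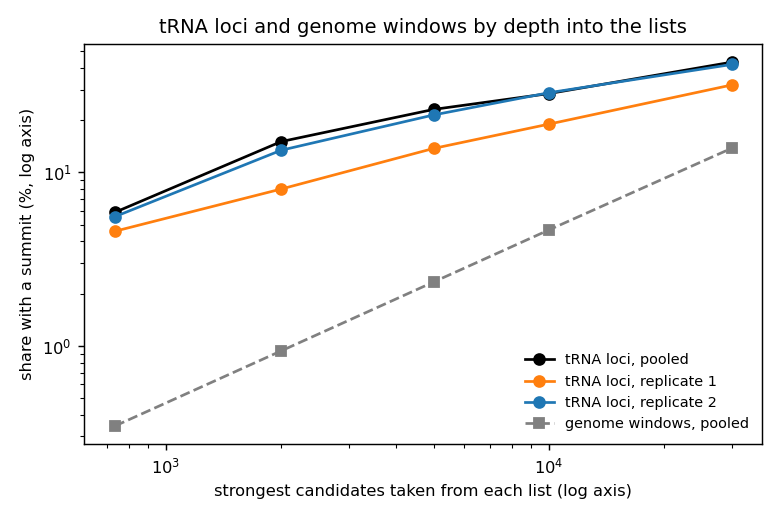
Share of tRNA loci (circles) and of genome windows of the same length (squares) with a summit, in percent, against the number of strongest candidates taken from each list, both on log axes. The pooled share goes from 5.88% to 43.1% while that of the windows goes from 0.345% to 13.8%.

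tRNA loci were not alone in this among small RNA genes. Of 346 snoRNA genes, whose products guide RNA modification, 38 had an IDR summit in a window made the same way (10.98%, exact 95% binomial interval 7.89% to 14.8%). Of 129 snRNA genes, which include those of the spliceosome, 7 had one (5.43%, interval 2.21% to 10.9%). The highest signal value at a tRNA locus, 51.1, was below the highest at a snoRNA (105.5) or snRNA locus (86.6).

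The tRNA loci were absent from the very top of the IDR list and had a somewhat lower median than the list as a whole. The signal value is the authors' own score of a peak, on a scale that is not stated. It ran from 26.8 to 51.1 at the 36 loci, with a median of 33.7, where the whole list had a median of 36.4 and a maximum of 127.1. Their ranks ran from 140 to 720, so that 0 of them were among the 100 strongest peaks and 13 were in the stronger part, the first 368. In replicate 1 the same loci had signal values of 3.09 to 15.9 (median 10.7), and in replicate 2 of 9.19 to 50.4 (median 24.7), on separate scales.

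**Figure D2:**
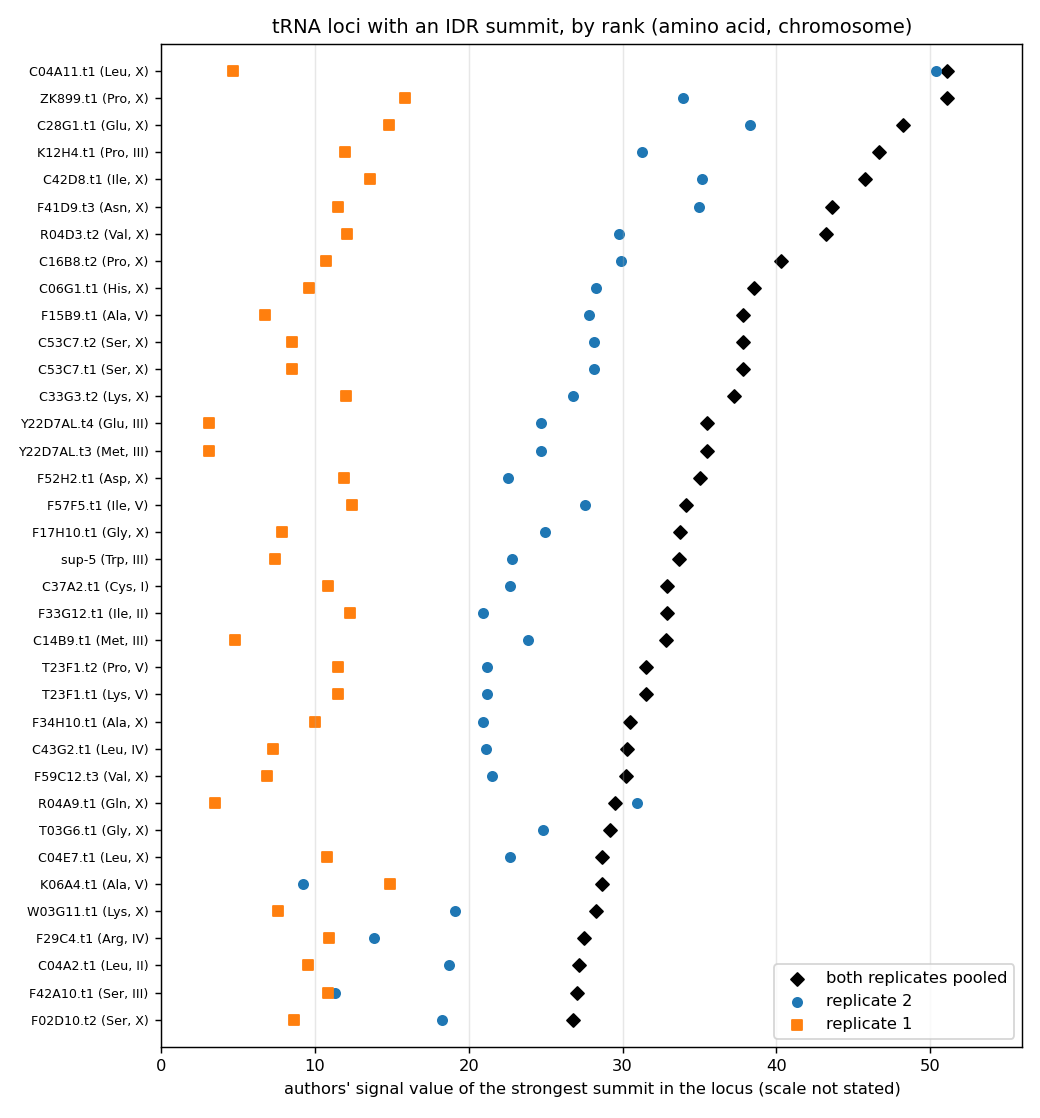
Authors' signal value of the strongest summit (x axis, scale not stated) at each of the 36 tRNA loci with an IDR summit (y axis, with amino acid and chromosome), for the pooled list (diamonds), replicate 1 (squares) and replicate 2 (circles). The pooled values run from 26.8 to 51.1, and T03G6.t1 has no candidate in replicate 1.

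C04A11.t1, a tRNA-Leu gene between protein-coding genes on X (13665555 to 13665673), had the highest pooled signal value, 51.1 (rank 140). Its signal value was 50.4 in replicate 2, rank 77, but 4.63 in replicate 1, rank 6685. It was thus among the top candidates of replicate 2 alone. ZK899.t1, a tRNA-Pro gene on X (9467729 to 9467800), had nearly the same pooled value, 51.1 (rank 141), with 15.9 in replicate 1 (rank 104) and 33.9 in replicate 2 (rank 234). It was the strongest tRNA locus of replicate 1.

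The 10 strongest loci held 8 on X, beside 20 of the 36 loci with an IDR summit and 45.1% of all tRNA genes. C28G1.t1 (tRNA-Glu, X, 8836113 to 8836184) overlaps the protein-coding gene C28G1.2 without lying in an intron, and had a pooled signal value of 48.2, with 14.8 in replicate 1 and 38.3 in replicate 2. C42D8.t1 (tRNA-Ile, X, 5085622 to 5085695), whose nearest protein-coding start is that of the ETS-domain factor gene ets-5, had 45.8, with 13.6 and 35.2 in replicates 1 and 2. F41D9.t3 (tRNA-Asn, X, 8404499 to 8404571) lies in an intron of sulp-3, a member of the sulfate permease family, and had 43.6, with 11.5 and 34.9. These 3 were among the top candidates of both replicates. C28G1.t1 lies 97 bp from the start of C28G1.2. Its locus and that of C42D8.t1 overlap a protein-coding promoter window, from 1000 bp upstream to 200 bp downstream of a start. Of the 36 loci with an IDR summit 14 did so (38.9%), beside 193 of all 612 (31.5%).

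R04D3.t2 (tRNA-Val, X, 13307034 to 13307106) was the strongest locus with another tRNA gene within 1000 bp, at 923 bp. Its pooled signal value was 43.2, with 12.1 in replicate 1 and 29.7 in replicate 2. C16B8.t2 (tRNA-Pro, X, 3970096 to 3970167), 97 bp from the next tRNA gene, had 40.3, with 10.7 and 29.9. C06G1.t1 (tRNA-His, X, 16634830 to 16634901), in an intron of C06G1.1, had 38.6, with 9.63 and 28.3. Each of these 3 was also in the top of both replicates.

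K12H4.t1 (tRNA-Pro, III, 8069405 to 8069476) lies in an intron of pros-1 on the same strand and was the strongest autosomal tRNA locus. Its pooled signal value was 46.7 (rank 197), with 11.9 in replicate 1 (rank 268) and 31.2 in replicate 2 (rank 299). The transgene may carry this tRNA gene as well, so its copy number in the strain may exceed that of the reference, and the part of this in its signal was not tested. Without it the share of tRNA loci with an IDR summit was 5.73%. F15B9.t1 (tRNA-Ala, V, 13003509 to 13003580), in an intron of the formin gene inft-2, was the next autosomal locus, at 37.8, with 6.74 in replicate 1 (rank 1902) and 27.8 in replicate 2 (rank 394).

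The strongest loci of the remaining autosomes were weaker. C37A2.t1 (tRNA-Cys, I, 6781803 to 6781874), in an intron of the cyclin E gene cye-1, had 32.9, with 10.8 and 22.7 in replicates 1 and 2. F33G12.t1 (tRNA-Ile, II, 5032771 to 5032844), in an intron of F33G12.3, had 32.9, with 12.3 and 20.9. C43G2.t1 (tRNA-Leu, IV, 6556818 to 6556901), near the trypsin-like protease gene try-3, had 30.3, with 7.29 and 21.1. The pair Y22D7AL.t4 (tRNA-Glu) and Y22D7AL.t3 (tRNA-Met) on III (1604702 to 1604773 and 1604582 to 1604653), the strongest intergenic autosomal loci, shared 1 summit of 35.5, with 3.09 in replicate 1 (rank 17221) and 24.7 in replicate 2 (rank 510).

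At the edge of the list the values changed little. The weakest loci with an IDR summit were F42A10.t1 (tRNA-Ser, III), at 27.0 (rank 706), and F02D10.t2 (tRNA-Ser, X), at 26.8 (rank 720). The strongest without one were T21B4.t1 (tRNA-Ile, II) in the collagen gene col-85, at 26.3 (rank 739), and W03C9.t1 (tRNA-Val, II), at 26.3 (rank 741), which had no candidate in replicate 1. A threshold thus separated loci of nearly equal value.

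The replicates ordered the bound loci differently. Of the 36 IDR loci, 21 were in the top of replicate 1, 30 in the top of replicate 2, 17 in both and 2 in neither. Over the 128 loci with a candidate in both replicates, the rank correlation (Spearman's rho) between replicates was 0.38, and Pearson's r after log2 transformation of the signal came to 0.40. Over the 35 IDR loci with a candidate in both, rho was 0.069, within a range narrowed by the choice of strong peaks. Loci that overlap share summits, so these are descriptions over loci, not over samples. K06A4.t1 (tRNA-Ala, V, 9503562 to 9503633, in the sugar transporter gene swt-5) was the reverse of C04A11.t1, with 14.9 in replicate 1 (rank 136) and 9.19 in replicate 2 (rank 5656). C18A11.t2 (tRNA-Arg, X, 8036685 to 8036757), whose nearest protein-coding start is that of the sex determination gene xol-1, was second at tRNA loci in replicate 1, at 15.7 (rank 110). Its strongest summit in replicate 2 also had 15.7 (rank 1347) but was a different one. It lay 53 bp upstream of the gene, where that of replicate 1 lay downstream, 183 bp from the 5′ end. The locus missed the IDR list with a pooled value of 23.0 (rank 999), at a downstream summit.

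**Figure D3:**
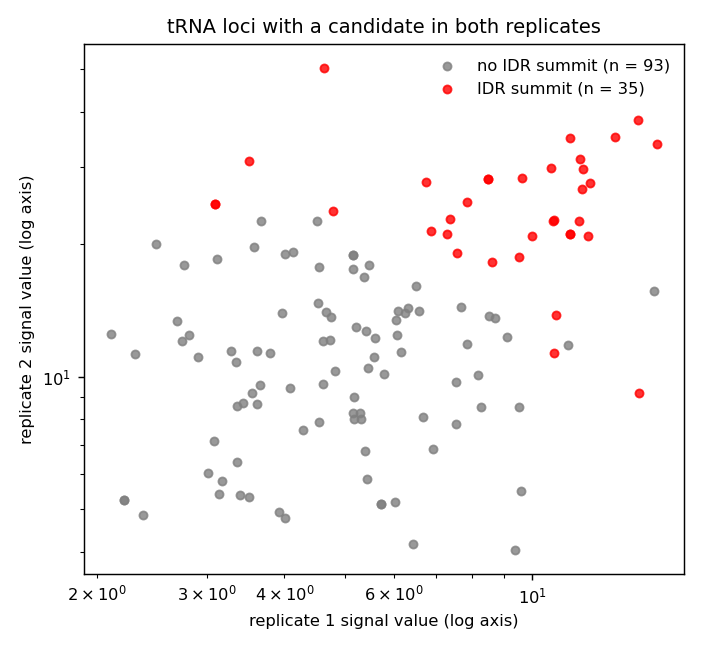
Signal value in replicate 1 (x) and replicate 2 (y), both on log axes, at the 128 tRNA loci with a candidate in both, with the 35 that have an IDR summit in red. Spearman's rho is 0.38 over all and 0.069 over the red points.

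Summits gathered at the 5′ end of the tRNA gene, mostly just upstream of it or within it. Along the gene's strand, 18 of the 36 loci had the IDR summit upstream of the 5′ end (50%, exact 95% binomial interval 32.9% to 67.1%), 14 within the gene (38.9%, 23.1% to 56.5%) and 4 downstream (11.1%, 3.11% to 26.1%). With overlapping loci merged, so that each of the 33 summits counts once, 16 lay upstream (48.5%). In a window of 472 bp the same parts make up 42.4%, 15.3% and 42.4%. The median offset from the 5′ end was 0 bp, with quartiles at -22.5 and 39. Of all IDR summits within 1000 bp, 14 lay in the 50 bp before the 5′ end and 12 in the 50 bp after it. F15B9.t1 had its pooled summit 2 bp inside the gene, C04A11.t1 9 bp inside and R04D3.t2 22 bp upstream. ZK899.t1 had it 65 bp from the 5′ end, near the 3′ end, but there the replicates differed. Its summit lay 9 bp upstream in replicate 2 and 97 bp from the 5′ end, past the gene, in replicate 1. At C04A11.t1 the summit of replicate 1 was 79 bp inside.

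Among the 264 loci with a pooled candidate, 51.5% had the strongest summit upstream, 26.5% within and 21.97% downstream, with a median offset of -4 bp. The 50 bp before the 5′ end held 14.05 pooled summits per 100 genes, beside a genome mean of 1.496, and the 50 bp after it held 8.17. From 100 to 150 bp upstream the value was 1.80, close to that mean, whereas downstream the value fell from 4.58 at 50 to 100 bp to 2.12 at 200 to 250 bp. The downstream side includes the gene itself. Farther upstream 1 bin stood out, at 400 to 450 bp, with 3.59 pooled summits per 100 genes, where replicate 2 had 2.61 and replicate 1 had 2.12.

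This placing was sharp in replicate 2 and broad in replicate 1. Replicate 2 had 13.7 candidate summits per 100 genes in the 50 bp before the 5′ end, 7.03 in the 50 bp after it and 5.07 in the next 50 bp. Replicate 1 had 4.74, 5.39 and 5.39, a flat course above its genome mean of 1.496. The median offset was -8 bp in replicate 2 and 39 bp in replicate 1. Among the top candidates alone, however, the upstream share was close in both, 46.4% in replicate 1 and 52.9% in replicate 2. At the IDR loci the summits of the replicates lay a median of 59 bp apart, and 17 pairs were within 50 bp, so that the replicates do not fix the position more finely than about a gene's length.

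**Figure D4:**
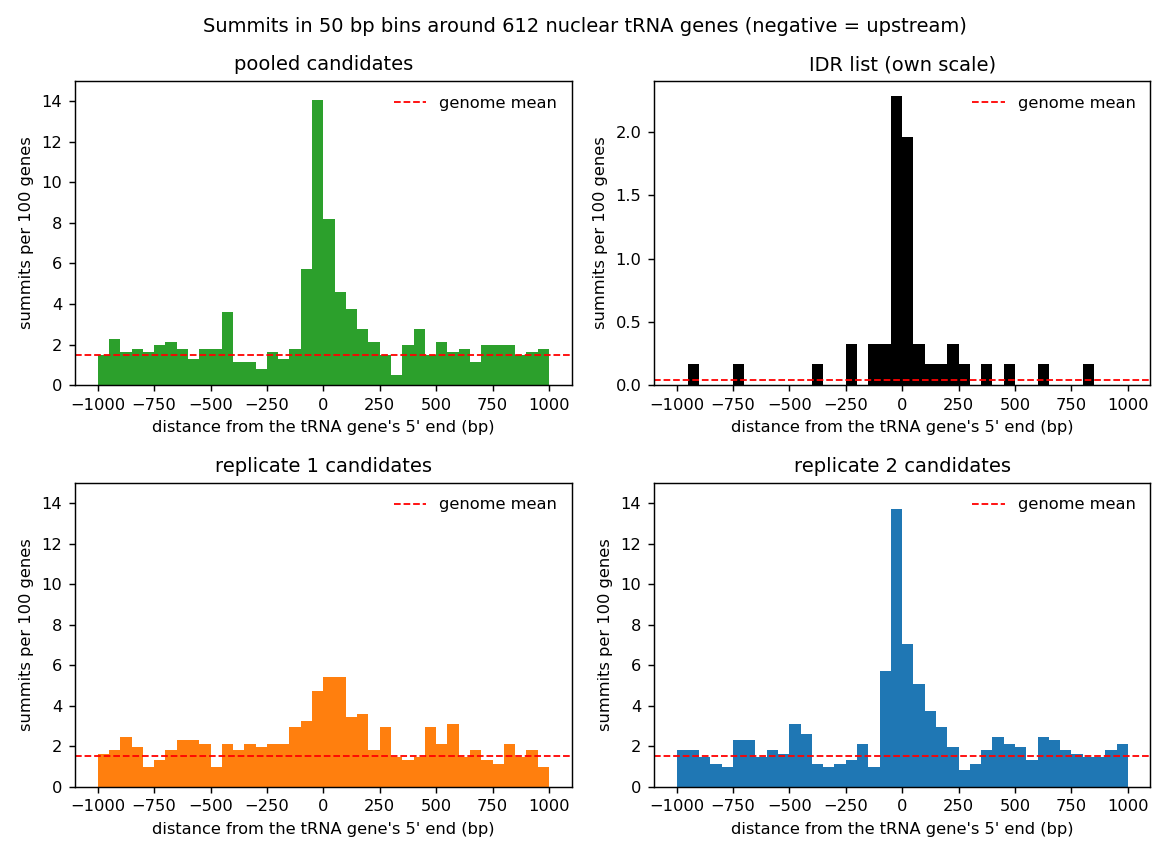
Candidate and IDR summits per 100 tRNA genes in 50 bp bins (y) by distance from the gene's 5′ end in bp (x, negative upstream), with the genome mean as a dashed line. The pooled and replicate 2 panels peak at 14.05 and 13.7 in the 50 bp before the 5′ end, where replicate 1 has 4.74.

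Isolated and clustered loci differed in where the pooled summit lay. Of the 25 isolated loci with an IDR summit, those with no other tRNA gene within 1000 bp, 10 had it upstream and 13 within the gene. Of the 11 clustered ones, 8 had it upstream and 1 within, at T23F1.t2 (tRNA-Pro, V), 3 bp from the 5′ end. Over the pooled candidates the share within the gene was 32.2% at isolated loci (exact 95% binomial interval 25.3% to 39.7%) and 15.6% at clustered ones (8.77% to 24.7%). In replicate 1 those shares were 32.6% and 18.2%, and in replicate 2 they were 27.3% and 20.2%, with overlapping intervals in both. Summits of a neighbour's locus are counted at both, which places some outside the gene.

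X-linked tRNA loci had IDR summits more often than autosomal ones by a margin within the counting error over the whole list. In its stronger part, cut by pooled signal, the margin was beyond that error, but no share of windows is given at that cut. On X 20 of 276 loci had an IDR summit (7.25%), beside 0.493% of X windows. On the autosomes 16 of 336 had one (4.76%), beside 0.313% of autosomal windows. The difference was 2.48 percentage points (95% Newcombe interval -1.30 to 6.59). It was 0.91 points in the top of replicate 1 (5.07% and 4.17%, interval -2.47 to 4.57) and 4.40 in that of replicate 2 (7.97% and 3.57%, interval 0.71 to 8.49). The windows of X also had more IDR summits than those of the autosomes, in about the same proportion as the tRNA loci. Relative to the windows of their own chromosomes, X-linked and autosomal tRNA loci thus had a similar excess over the whole list.

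Where weaker candidates were counted the order turned. A pooled candidate was present at 40.2% of X-linked loci, beside 14.4% of X windows, and at 45.5% of autosomal ones, beside 13.6% of autosomal windows, a difference of -5.32 points (interval -13.07 to 2.56). The signal of those candidates had a higher median on X, 15.1 beside 11.9. In the stronger part of the IDR list there were 11 of the 276 X-linked and 2 of the 336 autosomal loci, a difference of 3.39 points (95% Newcombe interval 1.06 to 6.43). Shares of X and autosomal windows at that cut are not given, so this is no excess over the chromosome's own windows. X-linked and autosomal loci also differed in their surroundings: 23.9% and 37.8% overlapped the promoter window of a protein-coding gene, and the median GC content was 37.8% and 41.5%. The part of GC content in these shares was not tested. Outside promoter windows the IDR shares were 6.67% on X and 3.83% on the autosomes, a difference of 2.84 points (interval -1.59 to 7.45). There the top of replicate 1 had nearly equal shares, 3.81% and 3.83%, and that of replicate 2 had 7.62% and 2.39%.

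By chromosome, 6 of 64 loci on III had an IDR summit (9.38%), 5 of 78 on V (6.41%), 2 of 57 on II (3.51%), 2 of 71 on IV (2.82%) and 1 of 66 on I (1.52%). Their exact intervals overlapped, from 3.52% to 19.3% for III and from 0.038% to 8.16% for I. The top of replicate 2 had a similar order, with 5 loci on III, 4 on V and 1 on each of the other autosomes. That of replicate 1 did not, with 3 loci on I and 2 on III.

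Intronic and intergenic tRNA loci did not differ detectably in IDR summits. Of 283 genes inside an intron of a protein-coding gene, 14 had an IDR summit (4.95%), beside 0.284% of intronic windows. Of 319 intergenic ones 21 had it (6.58%), beside 0.604% of intergenic windows, and of the 10 others, which overlap exons, 1 did. The difference, intronic minus intergenic, was -1.64 points (95% Newcombe interval -5.46 to 2.26), with 0.20 in replicate 1 and -1.01 in replicate 2. The strand of the host gene made no visible difference either, with 7 of 160 loci on the host's strand (4.38%) and 7 of 123 on the opposite one (5.69%). A pooled candidate was present at 45.6% of intronic and 40.8% of intergenic loci, a difference of 4.83 points (interval -3.07 to 12.7). For candidates of replicate 1 the difference was -0.84 (-8.23 to 6.62), and for those of replicate 2 it was 8.71 (0.81 to 16.5).

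Intronic loci with an IDR summit lay in genes of many kinds. Beside pros-1, sulp-3, cye-1, inft-2 and swt-5 named above, whose loci were chosen by a rule on signal, the hosts included fli-1, homolog of the actin regulator flightless, snx-17, a sorting nexin gene, the amino acid transporter gene aat-3 and the collagen gene col-99, which were picked out here after their values were seen. Their signal values were 33.7 for sup-5 in fli-1, 33.7 for F17H10.t1 in snx-17, 35.1 for F52H2.t1 in aat-3 and 27.5 for F29C4.t1 in col-99.

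Isolated loci had an IDR summit somewhat more often than clustered ones, again within the counting error. There were 25 of 376 isolated loci (6.65%) and 11 of 236 clustered ones (4.66%), a difference of 1.99 points (95% Newcombe interval -2.09 to 5.60). It was 2.62 points in replicate 1 and 0.77 in replicate 2. A pooled candidate was present at 46.3% and 38.1%, a difference of 8.14 points (0.081 to 15.95), with 6.34 in replicate 1 and 10.2 in replicate 2.

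The difference was seen on X and in introns. On X the shares were 14 of 141 isolated loci (9.93%) and 6 of 135 clustered ones (4.44%), a difference of 5.48 points (interval -0.80 to 11.99), whereas on the autosomes they were 4.68% and 4.95%. Among intronic loci 14 of 196 isolated ones had an IDR summit (7.14%) and 0 of 87 clustered ones. Taken as under 3 counts, that 0 allows a share of up to 3.45%, and the exact 95% interval reaches 4.15%. That difference was 7.14 points (interval 2.05 to 11.6). In the replicates it was 4.97 (-0.73 to 9.35) and 3.82 (-2.44 to 8.41), as the top of replicate 1 held 1 intronic clustered locus and that of replicate 2 held 2. Intergenic loci had the reverse order, 5.85% isolated and 7.43% clustered. These splits were made after the data were seen, and no difference between differences was tested.

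**Figure D5:**
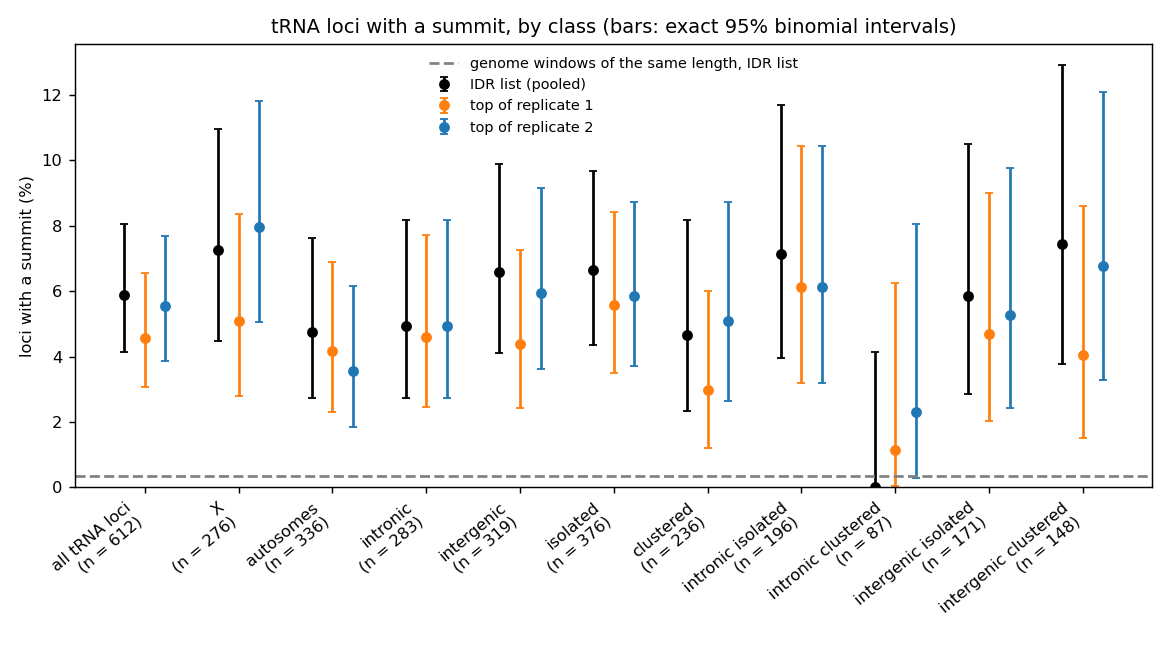
Share of tRNA loci with a summit in the IDR list (black) and among the top candidates of replicate 1 (orange) and replicate 2 (blue), in percent, by class, with exact 95% binomial intervals as bars and the genome windows' 0.345% as a dashed line. The intervals of the paired classes overlap in every case shown, and 0 of 87 intronic clustered loci have an IDR summit.

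Identical tRNA genes differed in whether they had an IDR summit or a pooled candidate. Of 31 sequences with an IDR locus, 25 were present in several copies, and 21 of those had at least 1 copy without any pooled candidate. Most of all 57 sequences in several copies had such a copy too, as 348 of the 612 loci had no pooled candidate. The count is thus no trait of the sequences with an IDR locus. The family with the most IDR loci, by a tie among 5 families with 2 each that was settled by the number of pooled candidates, was a tRNA-Pro gene of 24 identical copies, 13 of them on X. ZK899.t1, at 51.1, and T23F1.t2 (V, 15465225 to 15465296), at 31.5, had an IDR summit. T23F1.t2 had 11.5 in replicate 1 and 21.2 in replicate 2, and shared its summit with the tRNA-Lys gene T23F1.t1.

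The next copies were F46G11.t1 and F46G11.t2 on X, which shared a summit of 22.4 (5.16 and 18.9 in replicates 1 and 2), H06A10.t1 at 14.8, with no candidate in replicate 1 and 11.2 in replicate 2, and W09D6.t2 on III, in the spindle assembly gene rsa-2, at 11.8, with 3.92 in replicate 1 and none in replicate 2. In all 11 of the 24 copies had a pooled candidate, and 13 had none. Some of these had a candidate in a replicate's own list: F02H6.t1 in replicate 2 (9.36), and T22F3.t1, R11G10.t2 and Y7A5A.t3 in replicate 1 (4.01, 2.48 and 3.73). A missing candidate does not show that PROS-1 was absent. As the genes are the same letter for letter, reads from within them cannot be told apart, and how the authors placed such reads is not given in the sources used here. K12H4.t1, in pros-1, differs from this family at 1 position, C55G, counted from 1 at the gene's 5′ end with the family's base first, and C16B8.t2 differs from it at 5.

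Loci of single-copy sequences had candidates less often than those of repeated ones. A pooled candidate was present at 42 of 143 single-copy loci (29.4%, exact 95% binomial interval 22.06% to 37.6%) and at 222 of 469 with several copies (47.3%, 42.7% to 52.0%). Among genes with an A box match it was 34.6% and 47.6%, a difference of -13.0 points (95% Newcombe interval -22.6 to -2.35), with -7.83 in replicate 1 (-16.6 to 2.30) and -17.4 in replicate 2 (-26.5 to -6.94). IDR summits were present at 4.81% and 6.21% of these loci. Of the 39 single-copy genes without an A box match, 6 had a pooled candidate and 1, K06A4.t1, an IDR summit. Of the 17 loci under 50% unique, 1 had a pooled candidate and 0 an IDR summit.

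By amino acid, 17 of 21 kinds of tRNA gene had at least 1 locus with an IDR summit. tRNA-Leu and tRNA-Ser had 4 of 39 each (10.3%), tRNA-Pro 4 of 42 (9.52%) and tRNA-Gly 2 of 55 (3.64%). tRNA-Thr had 0 of 34 (up to 8.82% by 3 counts, exact 95% upper limit 10.3%), tRNA-Tyr 0 of 19 and tRNA-Phe 0 of 14. The exact intervals of the kinds overlapped, and no kind stood apart from the others beyond its counting error.

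sup-5, a tRNA-Trp gene known from amber suppressor mutations, was the only named suppressor gene with an IDR summit. It lies in an intron of fli-1 on III (8678497 to 8678568), with a signal value of 33.7 (rank 461) and ranks of 1354 and 599 in replicates 1 and 2. The tRNA-Trp suppressor genes sup-21, sup-24, sup-28 and sup-33 had no pooled candidate, sup-7 had a candidate of 7.11 and sup-29 one of 5.68. These genes were chosen for their names after the values were seen.

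A B box match did not set apart the loci with an IDR summit beyond the counting error. Genes with the B box core GTTCGANNC had an IDR summit in 25 of 441 cases (5.67%) and those without it in 11 of 171 (6.43%), a difference of -0.76 points (95% Newcombe interval -5.81 to 3.04). It was -3.39 in replicate 1 and -2.03 in replicate 2. For the A box the counts were 32 of 539 (5.94%) and 4 of 73 (5.48%), whereas pooled candidates were present at 45.1% and 28.8%. That gap was smaller among the candidates of each replicate alone, with 32.3% and 28.8% in replicate 1 and 42.9% and 34.2% in replicate 2. All 36 IDR loci had the TTTT run. The core without mismatch is a strict search, and many genes without a match, such as the tRNA-Pro and tRNA-Ala genes printed above, differ from it by few letters.

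Loci with a summit had a higher GC content. The median was 42.06% at loci with an IDR summit, 41.02% at loci with only a candidate and 38.6% at loci without a pooled candidate. They were also farther from other tRNA genes, with median gaps of 15191, 8359 and 2252 bp. At the summits themselves the GC content of 101 bp was 51.4% ± 6.08 (SD, 33 summits) at tRNA loci and 52.2% ± 6.96 (SD, 704 summits) in the rest of the list.

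Motifs were searched in the 101 bp around each summit, on both strands. GAGAGAG, a purine repeat, was found at 2 of 33 tRNA summits (6.06%, exact 95% binomial interval 0.74% to 20.2%), 130 of 704 others (18.5%) and 1.39% of genome windows of 101 bp. GGGCGG, a GC box, was at 9.09%, 8.38% and 1.60%. Of the half-sites of the Prospero family, AAGACG was at 6.06%, 7.10% and 3.35%, and AAGGCG at 18.2% (6 of 33, interval 6.98% to 35.5%), 5.11% and 2.10%. The B box core was at 18.2%, 2.70% and 0.75%. As 441 of the 612 tRNA genes contain this core, a higher share at summits chosen for lying at such genes follows from that choice. None of these motifs contains another.

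The AAGGCG matches were mostly part of the tRNA itself. At 5 of the 6 summits the match lay inside a tRNA gene, of tRNA-Leu in 3 cases, such as C04A11.t1 and C43G2.t1 printed above, and of tRNA-Arg and tRNA-Ser in 1 each. At C28G1.t1 it lay outside. All 39 tRNA-Leu genes contain AAGGCG, as do 11 of 44 tRNA-Arg and 9 of 39 tRNA-Ser genes, and AAGACG is in 0 of the 612 genes. Of the 69 genes with AAGGCG, 6 had an IDR summit (8.70%), beside 30 of the 543 without it (5.52%), a difference of 3.17 points (95% Newcombe interval -2.00 to 12.3). It was -0.26 in the top of replicate 1 and -1.36 in that of replicate 2. A match is a description of the letters, not a binding site.

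Genes of the RNA polymerase III machinery and of tRNA maturation did not differ detectably from all genes in PROS-1 peaks at their promoters. With so low a share over all genes, a list of this size could well hold none. Of 32 genes for its subunits, initiation factors, its regulator and tRNA maturation, 0 had an IDR summit from 1000 bp upstream to 200 bp downstream of a start (up to 9.38% by 3 counts, exact 95% upper limit 10.9%), beside 2.55% of all 19973 protein-coding genes. None of them had a top candidate of either replicate there. A pooled candidate was present at 14 of 32 (43.8%) and at 41.99% of all genes. The strongest were those of rpb-8, a subunit shared by the nuclear RNA polymerases, at 17.5 (rank 1776), mafr-1, the Maf1 repressor of RNA polymerase III, at 16.7 (rank 1998), and snpc-3.4, of the small nuclear RNA activating complex, at 15.9 (rank 2285). hoe-1, the endonuclease of the tRNA 3′ end, had 15.2, and rtcb-1, the tRNA ligase, 13.2. By group, 2 of 4 polymerase III subunit genes, 3 of 12 initiation factor genes and 4 of 8 tRNA maturation genes had a pooled candidate.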

How the data were processed

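ChIP-seq peak lists of eGFP-PROS-1 from whole late embryos, 2 replicates of 1 group, were used on the ce11 build, the same assembly as WBcel235 by chromosome name and by coordinates that fit within it. The authors deposited an IDR list and 30000 candidate regions for the pooled data and for each replicate. The signal value is a score that the authors deposited with no scale, and the deposited q-values are on a −log10 scale. How reads were aligned, how those from repeated sequence were placed, which caller and IDR threshold were used and whether a control entered are not given in the sources used here. Candidates of each replicate were called separately, and the IDR list is pooled. Read depth is unknown, so intervals cover counting of loci only.

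tRNA, snoRNA and snRNA genes came from the Ensembl release 115 annotation of WBcel235, amino acids and sequences from RefSeq, matched by WormBase gene ID. A locus is the gene with 200 bp on both sides, and a hit is a summit inside it. Top candidates are the 737 with the highest signal value, as many as in the IDR list. Clustered means another tRNA gene within 1000 bp. Intronic means inside a protein-coding gene and overlapping no exon of one. A promoter window runs from 1000 bp upstream to 200 bp downstream of a protein-coding start. Shares have exact (Clopper-Pearson) and differences Newcombe 95% intervals, with no p-value, since loci are no replicates and share summits. Named loci are the 10 of the highest pooled signal, the strongest of each chromosome and class, the strongest 3 of each replicate, those at the edge of the list, the tRNA gene in pros-1 and up to 6 of the identical family with the most IDR loci. The members, lists and alternatives were chosen with earlier results of these data known. Scoring was tested on simulated data. The work was done in Python 3.11.15 with scipy 1.17.1, pandas 2.3.3, matplotlib 3.10.9 and numpy 2.4.6.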

Additional observations from a re-analysis of the deposited data

How the results depend on the processing

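The share of tRNA loci with an IDR summit, 5.88%, was 2.12% with only the stronger part of the IDR list and 43.1% with all pooled candidates, by construction of those lists, and stayed between 5.07% and 6.86% under the other settings run with both replicates. With all pooled candidates the X minus autosome difference became -5.32 points, intronic minus intergenic 4.83, isolated minus clustered 8.14 and the B box difference 3.87. Intronic minus intergenic, -1.64 points, also turned to 0.20 without loci in promoter windows and to 0.68 with a host of any biotype, and the B box difference to 0.54 with 100 bp on both sides. Isolated minus clustered was 0 points with clusters defined within 500 bp, and, in a split chosen after seeing the data, 5.48 on X alone and -0.27 on the autosomes alone. The cause of these changes was not tested. The 17 loci in the top of both replicates became 26 with 1474 and 57 with 5000 top candidates each.

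With the top of 1 replicate in place of the IDR list, the share ran from 4.58% to 5.56%, X minus autosome from 0.91 to 4.40 points, intronic minus intergenic from -1.01 to 0.20, isolated minus clustered from 0.77 to 2.62, the B box difference from -3.39 to -2.03, and the upstream share of summits from 46.4% to 52.9%. Polymerase III and tRNA maturation genes stayed at 0. No paired analysis was possible because there was only 1 group. Over the whole IDR list, the counting intervals of the X minus autosome, intronic minus intergenic, isolated minus clustered and B box differences included 0. In the stronger part of the list that of X minus autosome did not, at 3.39 points (1.06 to 6.43), with no share of windows given at that cut.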
